A study of Homo sapiens with 12 samples.

Results

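The genes described here encode enzymes that make androgens or convert one androgen into another. They were taken by name, from a list of 10 steroid enzyme genes. The Ensembl identifiers of these were looked up among the 63677 gene identifiers of the count tables. The list was chosen with earlier results of these data known. Of the 10, 9 were matched by identifier: SRD5A1, SRD5A3, HSD17B4, HSD17B10, HSD17B11, HSD17B14, AKR1C3, STS and HSD3B1. SRD5A2 could not be matched by identifier and was not analysed here. Expression was measured by RNA-seq of poly(A) RNA in LNCaP cells, an established human prostate cancer line that responds to androgen. The engineered nuclease used, a TALEN, was directed at the CTG start codon of Bag-1L, the longest protein made from the BAG1 gene and a cochaperone, and the Bag-1L KO line was compared with a TALEN control line. Control and KO cells were harvested either from full medium (FM) or after 72 h without hormone, in charcoal-treated serum, followed by 16 h with ethanol (EtOH) or with 10 nM dihydrotestosterone (DHT). Each of the 6 groups had 2 biological replicates. Single clones were isolated by serial dilution, and the start codons of the shorter Bag-1 proteins were left intact, so the KO removes 1 protein form and not the gene, and differences between clones and loss of Bag-1L cannot be told apart.

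Androgens are built from cholesterol through the precursor dehydroepiandrosterone (DHEA), which circulates mainly as its sulfate. Prostate cells that lack the early steps can take up the sulfate, free the steroid with a sulfatase, oxidise it with a 3beta-hydroxysteroid dehydrogenase, reduce the 17-keto group to give testosterone, and reduce testosterone with a 5alpha-reductase to DHT, the strongest natural androgen. Other 17beta-hydroxysteroid dehydrogenases oxidise androgens back to weaker 17-keto steroids, and glucuronidation removes them from the cell.

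Within this scheme STS releases DHEA and other steroids from their sulfates. HSD3B1 then converts DHEA to androstenedione, and AKR1C3 reduces androstenedione to testosterone. SRD5A1 and SRD5A2 are 5alpha-reductases, while SRD5A3 is also the polyprenol reductase needed for protein N-glycosylation. HSD17B4 is a peroxisomal enzyme with both steroid dehydrogenase and fatty acid beta-oxidation activity, HSD17B11 is a lipid droplet enzyme that oxidises 17beta-hydroxysteroids, HSD17B10 is a mitochondrial enzyme that also serves in isoleucine breakdown and mitochondrial RNase P, and HSD17B14 is a further oxidising member of the family. On GRCh37 members that passed the test in a comparison below lie at chr5:118788160-118972894 (HSD17B4, plus strand), chr4:88257667-88312340 (HSD17B11, minus strand), chr1:120049821-120057677 (HSD3B1, plus strand) and chrX:7065278-7772399 (STS, plus strand). HSD17B14, which also passed, lies at chr19:49316275-49339767 on the minus strand.

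The promoters of HSD17B4, HSD17B11 and HSD3B1 are shown because these were the members whose counts passed the test after DHT. Each run holds the 250 bases before a RefSeq transcription start on GRCh38.p14, read 5′ to 3′ on the gene's strand, with every CG dinucleotide in capitals.
HSD17B4, chr5:119452247-119452496, plus strand: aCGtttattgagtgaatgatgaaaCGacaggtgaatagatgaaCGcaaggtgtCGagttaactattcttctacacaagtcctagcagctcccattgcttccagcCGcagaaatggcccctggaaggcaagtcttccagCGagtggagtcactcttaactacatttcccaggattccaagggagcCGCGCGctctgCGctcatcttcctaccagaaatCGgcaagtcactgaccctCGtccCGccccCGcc
HSD17B11, chr4:87391189-87391438, minus strand: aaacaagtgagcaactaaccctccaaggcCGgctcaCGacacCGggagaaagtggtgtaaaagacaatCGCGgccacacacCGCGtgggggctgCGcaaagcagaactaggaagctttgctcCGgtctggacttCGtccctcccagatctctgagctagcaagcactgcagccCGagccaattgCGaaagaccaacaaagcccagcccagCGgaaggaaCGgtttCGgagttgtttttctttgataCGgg
HSD3B1, chr1:119506953-119507202, plus strand: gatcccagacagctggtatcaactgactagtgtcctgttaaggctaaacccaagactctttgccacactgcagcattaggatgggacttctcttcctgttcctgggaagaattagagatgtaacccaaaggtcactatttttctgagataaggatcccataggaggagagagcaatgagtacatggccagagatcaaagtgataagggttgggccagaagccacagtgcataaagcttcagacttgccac
The stretches before HSD17B4, HSD17B11 and HSD3B1 hold 14, 16 and 0 CG dinucleotides. These counts are given without a background, and a link between CG count and the response to DHT was not tested. The G and C contents of these stretches are 52.8%, 56.0% and 46.8%, beside a median of 58.0% over the 35116 promoters of the RefSeq table. AGAACA on either strand, which is only a part of the androgen receptor motif, was found 0 times in each of these stretches. The full motif, an inverted pair of such parts, was also found 0 times in each, and in 1 of the 35116 promoters. AGAACA was present in 2 of the 15 member promoters (13.3%), beside 12.4% of all promoters of that table. Both of these 2 lie before starts of 1 gene, STS.
HSD17B14 is named only, as the table has no entry matched to it.

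BAG1 is the targeted gene. As only the start codon of Bag-1L was targeted, BAG1 RNA cannot verify the KO labels and is given as a description. Its normalized read counts (counts divided by a size factor for depth) in control were 2117 and 1968 with FM, 1701 and 2703 with EtOH, and 2199 and 2631 with DHT. The KO counts were 1452 and 1576 with FM, 1191 and 1103 with EtOH, and 1075 and 1114 with DHT. Every KO sample lay below every control sample of its condition. The difference passed the test in EtOH (log2 fold change −0.94, SE 0.18, DESeq2 adjusted p = 6.35e-06) and DHT (−1.14, SE 0.18, adjusted p = 7.71e-09) and missed it in FM (−0.43, SE 0.18, adjusted p = 0.0682). These counts sum over all BAG1 transcripts and do not measure the Bag-1L protein. By western blot the paper reports loss of Bag-1L and higher levels of the shorter forms Bag-1S and Bag-1 in KO.

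Gene counts totalled between 20826843 and 30354666 per sample. The median gene differed by 0.238 (log2) between the replicates of control EtOH, the widest distance, and by 0.076 to 0.172 in the other groups, so values in control EtOH are the least precise. Of the markers fixed for cell types, the luminal prostate genes KLK3, KLK2, FOLH1, HOXB13 and TMPRSS2 were abundant, TP63, KRT5, CD68, CDH5, NR5A1 and INHA stayed under 10 normalized counts in every sample, KRT14 reached 30.7, and the fibroblast gene COL1A1 was present at 370 to 1013 while COL1A2 and DCN were below 10. The part of COL1A1 in any result was not tested. The androgen-responsive gene FKBP5 went from 2247 and 2037 to 36045 and 33569 with DHT in control, and from 1450 and 1424 to 23628 and 22488 in KO.

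The members differed widely in abundance, with the mitochondrial HSD17B10 at the top and AKR1C3 near the limit of detection. On a scale of normalized counts per kb of the longest annotated transcript, HSD17B10 had a mean level of 1570 in control FM, HSD17B4 of 521, HSD17B11 of 317, SRD5A3 of 302, SRD5A1 of 146, STS of 60.6, HSD3B1 of 38.1, HSD17B14 of 14.6 and AKR1C3 of 5.43. HSD17B10 was the most abundant and AKR1C3 the least abundant in every group, whichever length was used. In control FM the replicates of HSD17B11 and SRD5A3 overlapped on this scale, so their order is not set. HSD17B4 and HSD17B11, as well as SRD5A1 and SRD5A3, changed places in some groups when all annotated exons were taken as the length. The annotated exons of HSD17B4 span 24.9 kb and its longest transcript 11.9 kb, and for SRD5A3 these are 7.70 kb and 4.06 kb. The transcript marked canonical for HSD17B4 is only 2.63 kb. On canonical lengths the control FM level was 2360 for HSD17B4 and 317 for HSD17B11. On the length of the longest transcript STS stood sixth in both FM groups, and after hormone starvation HSD17B14 or HSD3B1 took that place, in EtOH and in DHT, in both lines.

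**Figure D1:**
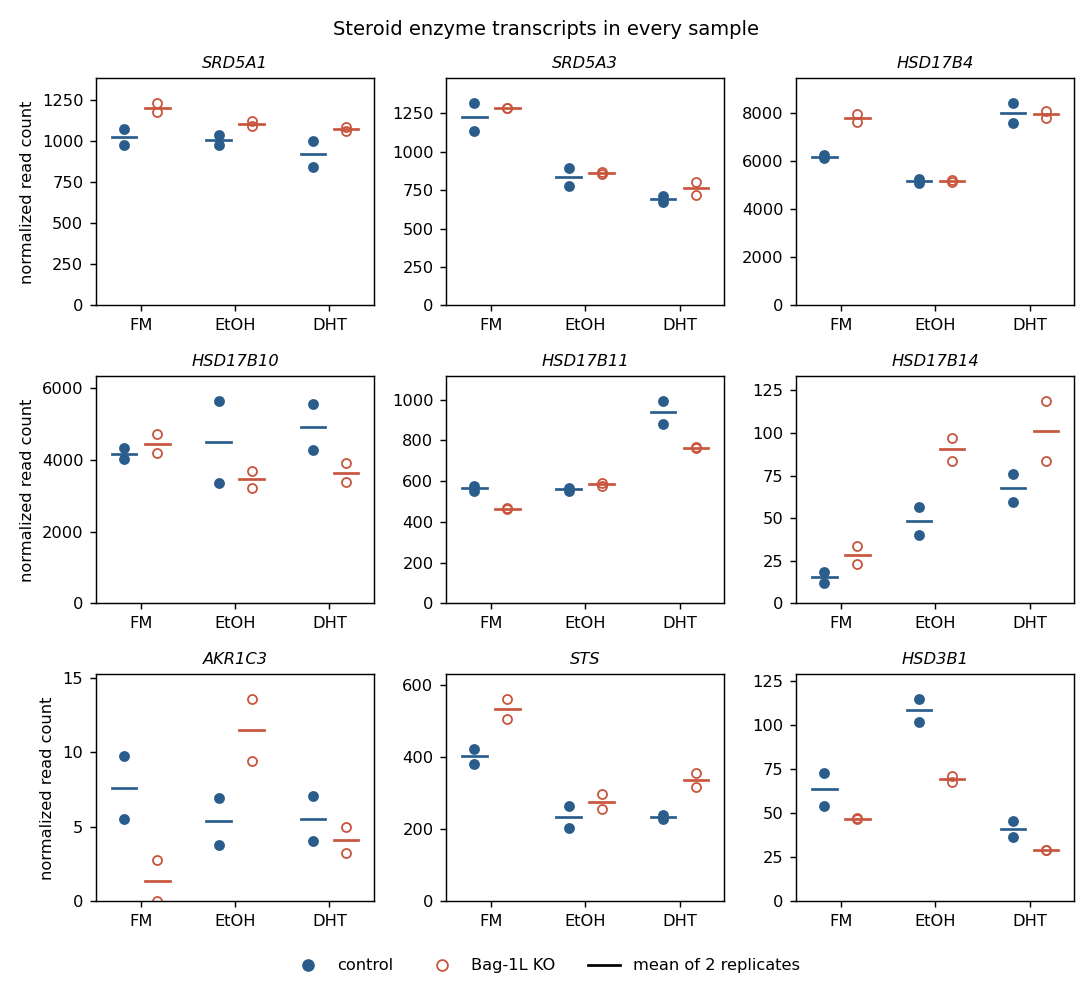
Normalized read counts (vertical axis, linear, starting at 0) of the 9 matched genes in FM, EtOH and DHT, with filled points for control, open points for Bag-1L KO and a bar for the mean of 2 replicates. HSD17B4 lies between 7609 and 8447 in all 4 DHT samples against 5102 to 5256 in all 4 EtOH samples, and HSD3B1 lies lowest in DHT in both lines.

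The first comparison asks which of these genes respond to androgen itself, as DHT against EtOH in each line. In control cells DHT raised HSD17B4 and HSD17B11 and lowered HSD3B1, and 6 members did not pass the test, with AKR1C3 receiving no adjusted p because its counts were too low. A gene was called when it differed by at least 1.5-fold with a DESeq2 adjusted p, corrected over all genes tested, of at most 0.05. So 3 of 8 members tested were called in control, where 11.4% of all genes tested were called, and 2 of 8 were called in KO, where 7.68% were. In this bulk RNA, fewer cells of a type and less RNA per cell cannot be told apart. The 2 lines share no samples in these contrasts.

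In control, HSD17B4 counts were 5102 and 5256 with EtOH and 7609 and 8447 with DHT. In KO they were 5229 and 5128 with EtOH and 8093 and 7829 with DHT. Every DHT sample lay above every EtOH sample. The rise was 1.55-fold in control (log2 0.63, SE 0.09, adjusted p = 2.3e-10) and 1.54-fold in KO (log2 0.62, SE 0.09, adjusted p = 7.02e-10). In control its rise fell under the fold minimum without DHT replicate 2 (log2 0.55). The difference between the lines was −0.01 on the log2 scale, with a 95% interval from −0.27 to 0.24.

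For HSD17B11 the control counts were 566 and 554 with EtOH and 880 and 995 with DHT. The KO counts were 593 and 576 with EtOH and 768 and 762 with DHT. The 4 EtOH samples lay between 554 and 593, and both control DHT samples lay above both KO DHT samples. The rise was 1.67-fold in control (log2 0.74, SE 0.12, adjusted p = 3.03e-08), and the KO value of 1.31-fold had an adjusted p of 0.0152 but stayed under the fold minimum. The test of the difference gave −0.35 on the log2 scale (SE 0.17, 95% interval −0.69 to −0.02, unadjusted p = 0.0403, adjusted p = 1) and was not called.

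HSD3B1 counts went from 102 and 115 with EtOH to 45.4 and 36.3 with DHT in control. In KO they went from 71.2 and 67.8 to 29.0 and 28.9. Each line's DHT samples lay below its EtOH samples, and the KO samples lay below the control samples of the same treatment. The fall was 2.66-fold in control (log2 −1.41, SE 0.31, adjusted p = 5.75e-05) and 2.4-fold in KO (log2 −1.26, SE 0.33, adjusted p = 0.00158). Without KO EtOH replicate 1 the KO fall missed the threshold (log2 −1.23, adjusted p = 0.051). The difference between the lines was 0.15 on the log2 scale (95% interval −0.73 to 1.02). HSD3B1 shares 5.71% of its 50-base words with other loci, mainly HSD3B2 and pseudogenes, and reads from such stretches are left out by the counting. HSD3B2 itself was at no more than 2.99 normalized counts in any sample.

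The remaining members did not pass the test for DHT in either line. SRD5A1 was at 978 and 1038 in control EtOH and 845 and 1005 in control DHT, and its counts overlapped there, with a log2 difference of −0.12 in control (SE 0.12) and −0.04 in KO (SE 0.12). SRD5A3 had −0.28 in control (unadjusted p = 0.0342, adjusted p = 0.13) and −0.18 in KO. HSD17B10, HSD17B14 and STS had log2 differences of 0.13, 0.49 and −0.01 in control and 0.07, 0.16 and 0.29 in KO. With DHT, AKR1C3 counts were 4.04 and 7.06 for control cells and 3.23 and 4.98 for KO cells. The median log2 difference of the 8 members tested was 0.06 in control and 0.12 in KO, against −0.02 and −0.01 over all genes tested. Among the differences of the DHT response none of the 8 members tested was called by DESeq2 or edgeR, HSD17B11 alone had an unadjusted p under 0.05, and 0.408% of all genes tested were called.

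**Figure D2:**
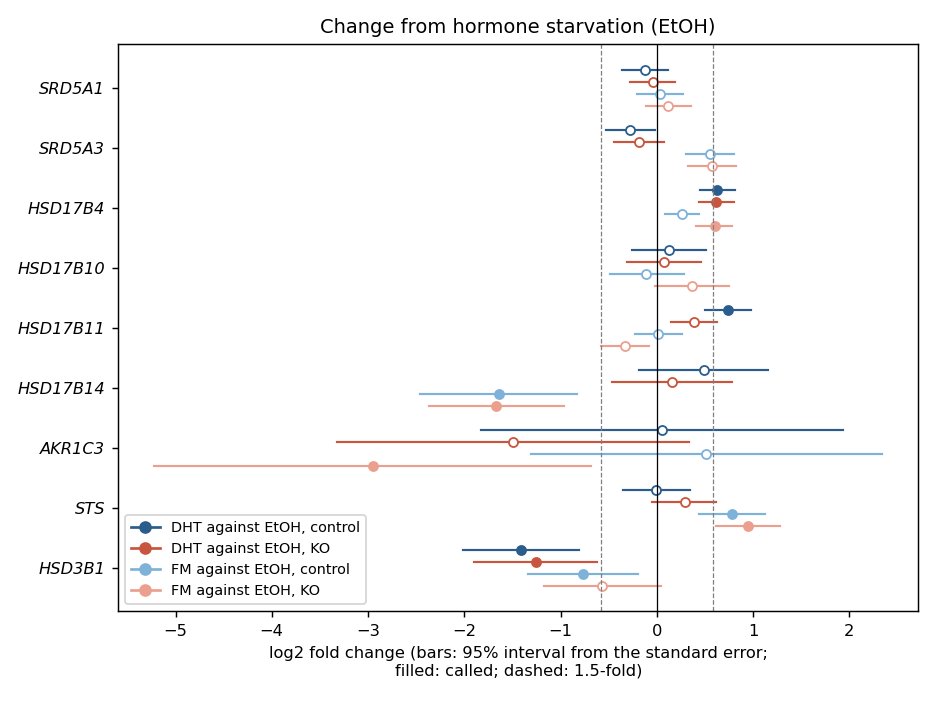
Log2 fold changes of DHT (dark) and FM (light) against EtOH in control (blue) and Bag-1L KO (red), with 95% intervals from the standard error, filled points for called values and dashed lines at 1.5-fold. HSD17B4 and HSD3B1 are called for DHT in both lines and HSD17B11 in control, while STS and HSD17B14 are called for FM in both.

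The second comparison asks how the same genes stand in full medium, which holds serum hormones, lipids and growth factors, against hormone starvation. FM raised STS and lowered HSD17B14 in both lines, and the other calls were made in 1 line each. Of 9 members tested, 3 were called in control, where 21.3% of all genes were called, and 4 in KO, where 19.3% were. The FM and DHT comparisons use the same EtOH samples.

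STS, the sulfatase, was at 381 and 422 in control FM and 264 and 203 in control EtOH, and at 561 and 504 in KO FM and 255 and 296 in KO EtOH. Every FM sample lay above every EtOH sample. The rise was 1.72-fold in control (log2 0.78, SE 0.17, adjusted p = 4.57e-05) and 1.93-fold in KO (log2 0.95, SE 0.17, adjusted p = 2.58e-07). The DHT counts were 227 and 238 for control cells and 356 and 317 for KO cells. STS overlaps the opposite-strand gene PUDP over 0.3% of its exon bases.

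HSD17B14 was at 12.1 and 18.5 in control FM and 40.0 and 56.7 in control EtOH, and at 23.3 and 34.0 in KO FM and 97.2 and 83.8 in KO EtOH. The FM and EtOH samples of a line did not overlap, and in each condition the KO samples lay above the control samples. The fall in FM was 3.13-fold in control (log2 −1.64, SE 0.41, adjusted p = 0.00042) and 3.18-fold in KO (log2 −1.67, SE 0.36, adjusted p = 2.91e-05). None of its 50-base words is shared with another locus.

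HSD17B4 was at 6150 and 6265 in control FM and 7656 and 7993 in KO FM. The KO FM samples lay within the range of the 4 DHT samples, and the control FM samples between those and EtOH. Its FM rise was 1.51-fold in KO (log2 0.60, SE 0.09, adjusted p = 1.65e-09) and was called, whereas the control value was 1.2-fold (log2 0.26, adjusted p = 0.0163), under the fold minimum. The KO call was lost with a filter of 10 counts in every sample (log2 0.57) and without KO FM replicate 2 (0.56) or KO EtOH replicate 2 (0.58). The test of the difference gave 0.33 (SE 0.13, unadjusted p = 0.0104, adjusted p = 0.178) and was not called.

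HSD3B1 was at 54.1 and 73.0 in control FM and 46.6 and 47.1 in KO FM. Its fall in FM was called in control (1.7-fold, log2 −0.77, SE 0.29, adjusted p = 0.0266), and the KO value was −0.57 (SE 0.31, adjusted p = 0.161). The control call was lost when only the compared samples were fitted (adjusted p = 0.0856) and without control FM replicate 1 or either control EtOH replicate, with log2 values from −0.86 to −0.57. The difference between the lines was 0.20 on the log2 scale (95% interval −0.63 to 1.03).

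SRD5A3 was at 1133 and 1318 in control FM and 780 and 896 in control EtOH, and at 1283 and 1287 in KO FM and 858 and 870 in KO EtOH. All FM samples lay above all EtOH samples, yet the difference stayed just under the fold minimum, at 1.46-fold in control (log2 0.55, SE 0.13, adjusted p = 0.000128) and 1.49-fold in KO (log2 0.57, adjusted p = 6.04e-05). The antisense gene SRD5A3-AS1 overlaps 1082 of the 7702 exon bases of SRD5A3 and held 431 counts over all samples, and whether the counting used strand was not stated in the sources used here. SRD5A1 had log2 differences of 0.03 in control and 0.12 in KO, and HSD17B10 of −0.11 and 0.37. HSD17B11 had 0.01 in control and −0.33 in KO, the latter with an adjusted p of 0.032 and under the fold minimum.

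AKR1C3, the enzyme that makes testosterone from androstenedione, lay close to the limit of detection in all samples, with 0 to 12 reads. Its normalized counts with FM were 5.52 and 9.73 for control cells and 2.80 and 0 for KO cells, and those with EtOH were 3.81 and 6.96 for control cells and 13.6 and 9.41 for KO cells. It was called lower in KO FM than in KO EtOH (log2 −2.95, SE 1.16, adjusted p = 0.0368). That call rests on 3 reads against 22, summed over replicates, a ratio of 0.134 with a 95% counting interval from 0.0256 to 0.445. The interval leaves out the spread between replicates. The call was lost with only the samples compared (DESeq2 adjusted p = 0.0509). DESeq2 gave no adjusted p when any 1 of the 4 KO samples was left out (log2 −5.83 to −2.03). AKR1C3 shares 5.23% of its 50-base words with other loci, mainly other AKR1C genes.

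Among the differences of the FM response none of 8 members tested was called by DESeq2 or edgeR, AKR1C3 and HSD17B4 had an unadjusted p under 0.05, and 1.39% of all genes tested were called. Without control EtOH replicate 1 HSD17B10 was called (log2 0.80).

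The third comparison asks whether loss of Bag-1L changed the level of these genes under a given condition. None of the members tested was called in EtOH, DHT or FM, and the intervals below give the size of difference that the data allow. In EtOH 0 of 8 were called by DESeq2, where 5.11% of all genes were called, HSD17B14 and HSD3B1 had an unadjusted p under 0.05, and edgeR called HSD17B14. In DHT 0 of 8 were called (7.98% of all genes), HSD17B10, HSD17B11 and STS had an unadjusted p under 0.05, and edgeR called 0. In FM 0 of 8 were called (8.01% of all genes), AKR1C3, HSD17B11, HSD17B14, HSD17B4 and STS had an unadjusted p under 0.05, and edgeR called 0.

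**Figure D3:**
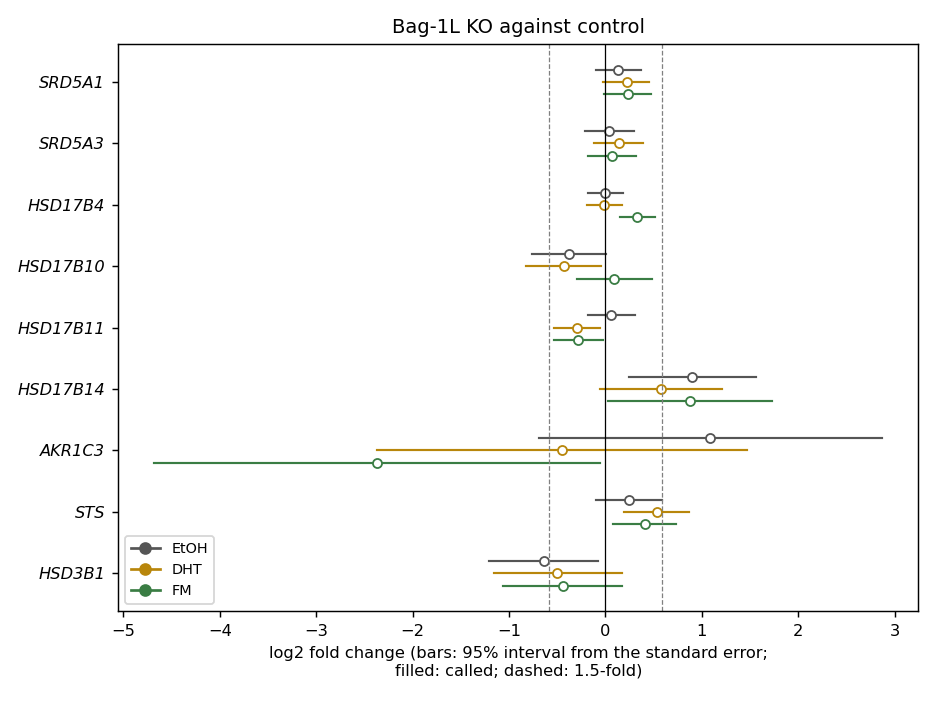
Log2 fold changes of Bag-1L KO against control in EtOH (grey), DHT (ochre) and FM (green), with 95% intervals from the standard error, open points for values not called and dashed lines at 1.5-fold. No point is filled, HSD17B14 and STS lie to the right of 0 in all 3 conditions, and HSD3B1 lies to the left in all 3.

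HSD17B14 counts in KO and control did not overlap in any condition, with log2 differences of 0.90 in EtOH (95% interval 0.24 to 1.56, adjusted p = 0.0663), 0.58 in DHT (−0.06 to 1.21, adjusted p = 0.233) and 0.88 in FM (0.03 to 1.73, adjusted p = 0.141). The EtOH value was called by edgeR and with a filter of 10 counts in every sample. STS had 0.24 in EtOH (−0.10 to 0.59), 0.53 in DHT (0.19 to 0.87, adjusted p = 0.018) and 0.41 in FM (0.08 to 0.73, adjusted p = 0.0669). The STS value in DHT, 1.45-fold, met the adjusted p but not the fold minimum, and its KO and control counts overlapped in EtOH. HSD3B1 had −0.64 in EtOH (−1.21 to −0.08, adjusted p = 0.159), −0.50 in DHT (−1.16 to 0.17) and −0.44 in FM (−1.06 to 0.17), and its samples did not overlap in any of the conditions. Lack of overlap between 2 and 2 samples is a description, and its share over all genes was not computed. In DHT it was also seen for SRD5A1 and SRD5A3, which were not called.

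HSD17B4 was nearly level between the lines after starvation, at 0.00 in EtOH (95% interval −0.18 to 0.18) and −0.01 in DHT (−0.19 to 0.17), whereas in FM it was 1.26-fold higher in KO (log2 0.33, interval 0.15 to 0.51, adjusted p = 0.00394), under the fold minimum. HSD17B11 had 0.06 in EtOH (−0.18 to 0.31), −0.29 in DHT (−0.53 to −0.06, adjusted p = 0.0744) and −0.28 in FM (−0.53 to −0.03, adjusted p = 0.105). The intervals of both genes lie inside 1.5-fold in every condition. The same was true of SRD5A1, with 0.13, 0.22 and 0.23, and of SRD5A3, with 0.04, 0.14 and 0.07, in EtOH, DHT and FM.

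HSD17B10 was at 4325 and 4015 in control FM, 3347 and 5645 in control EtOH, and 4274 and 5543 in control DHT. Its KO counts were 4189 and 4714 in FM, 3694 and 3218 in EtOH, and 3368 and 3907 in DHT, so in FM the lines overlapped. Its 2 control EtOH replicates lay further apart than any other pair, and TSPO, FDXR and BAG1 were also higher in control EtOH replicate 2 (3041, 1472 and 2703) than in replicate 1 (1583, 834 and 1701). The KO difference in EtOH was −0.38 (SE 0.20, adjusted p = 0.256), and it was called at −0.71 (adjusted p = 5.54e-05) without control EtOH replicate 1 and turned to 0.05 without replicate 2. In DHT it was −0.43 (SE 0.20, adjusted p = 0.119), and −0.61 and called without control DHT replicate 1. The direction in EtOH is therefore set by 1 library.

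AKR1C3 had log2 differences of 1.09, −0.45 and −2.37 in EtOH, DHT and FM, none with an adjusted p. In FM the difference compares 3 reads with 15, summed over replicates, a ratio of 0.195 with a 95% counting interval from 0.0362 to 0.689. That interval also leaves out the spread between replicates, so it does not stand in for the missing adjusted p.

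Around these enzymes stand the genes for the earlier steps of steroid synthesis and for disposal of androgens, taken as a list of 49 genes. All 49 were matched, 45 passed the filter on low counts, and 21 were called in at least 1 comparison. The share of all genes called in at least 1 comparison was not computed, so this count and those by role have no background. By role, 4 of 9 genes for the steps from cholesterol to androgen precursors were called in any comparison, as were 3 of 8 other 17beta-hydroxysteroid dehydrogenases, 4 of 7 other 3-ketosteroid reductases and oxidases, 2 of 7 genes of sulfate transfer, 6 of 7 of glucuronidation, 2 of 8 of other hydroxylation and 0 of 3 of uptake. With DHT, 5 genes rose and 2 fell in control of 33 tested, and 3 rose and 3 fell in KO, where 11.4% and 7.68% of all genes were called. With FM, 8 rose and 6 fell in control of 34 tested, and 10 rose and 5 fell in KO, beside 21.3% and 19.3% of all genes. In KO against control, 5 were higher and 0 lower in EtOH of 31 tested, 5 higher and 6 lower in DHT of 29, and 6 higher and 2 lower in FM of 28, beside 5.11%, 7.98% and 8.01% of all genes. The difference between the lines was called for 3 of 26 genes for DHT and 5 of 25 for FM, beside 0.408% and 1.39% of all genes, and several of these calls were lost when 1 library was left out.

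Among the glucuronidation genes, UGT2B11 and UGT2B28 were low in EtOH and rose with DHT and with FM in both lines. In control, UGT2B11 counts were 23.8 and 21.9 with EtOH, 675 and 737 with DHT, and 3105 and 3574 with FM. In KO they were 83.6 and 64.9 in EtOH, 423 and 373 in DHT and 1690 and 2008 in FM, so the KO samples lay above control in EtOH and below it in DHT and FM. The DHT rise was 30.9-fold in control and 5.4-fold in KO, and the difference of −2.52 on the log2 scale (SE 0.32, adjusted p = 9.41e-12) was called. UGT2B28 was at 10.5 and 8.95 in control EtOH and 301 and 355 in control DHT, against 21.5 and 21.6 and 182 and 188 in KO. Its DHT rise was 33.7-fold in control and 8.57-fold in KO, and the difference of −1.98 (SE 0.46, adjusted p = 0.00728) was called by DESeq2 and not by edgeR, with only the samples compared (adjusted p = 0.116) or without either KO EtOH replicate. The 2 genes share much sequence, 36.1% and 34.3% of their 50-base words with other loci, each other among them. Reads from such stretches are left out by the counting.

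UGT2B15 and UGT2B17, the main enzymes that conjugate DHT and its metabolites in prostate, were lower with DHT than with EtOH in KO. UGT2B15 counts with EtOH and then DHT were 101 and 121, then 81.8 and 101, in control. In KO they were 235 and 226, then 111 and 122. It fell 1.99-fold with DHT in KO (adjusted p = 1.28e-06), the control value was 1.22-fold lower (adjusted p = 0.387), and the difference between the lines was not called (log2 −0.71, unadjusted p = 0.00876, adjusted p = 0.599). In EtOH it was 2.08-fold higher in KO (adjusted p = 7.94e-07). UGT2B17 was at 93.3 and 81.6 in control EtOH and 170 and 186 in KO EtOH, 2.04-fold higher (adjusted p = 5.92e-05), and was 1.85-fold lower with DHT in KO (adjusted p = 0.000348). In control it was at 45.4 and 74.6 with DHT, 1.46-fold lower (unadjusted p = 0.0226, adjusted p = 0.0948), and the difference between the lines was not called (log2 −0.35, adjusted p = 1). In FM both were far above EtOH in each line, at 715 and 801 in control and 584 and 601 in KO for UGT2B15, and at 421 and 415 and 438 and 425 for UGT2B17. UGT2B10 rose with FM in both lines, 7.75-fold in control and 5.73-fold in KO. These genes share 21.6% to 27.1% of their 50-base words with other loci.

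**Figure D4:**
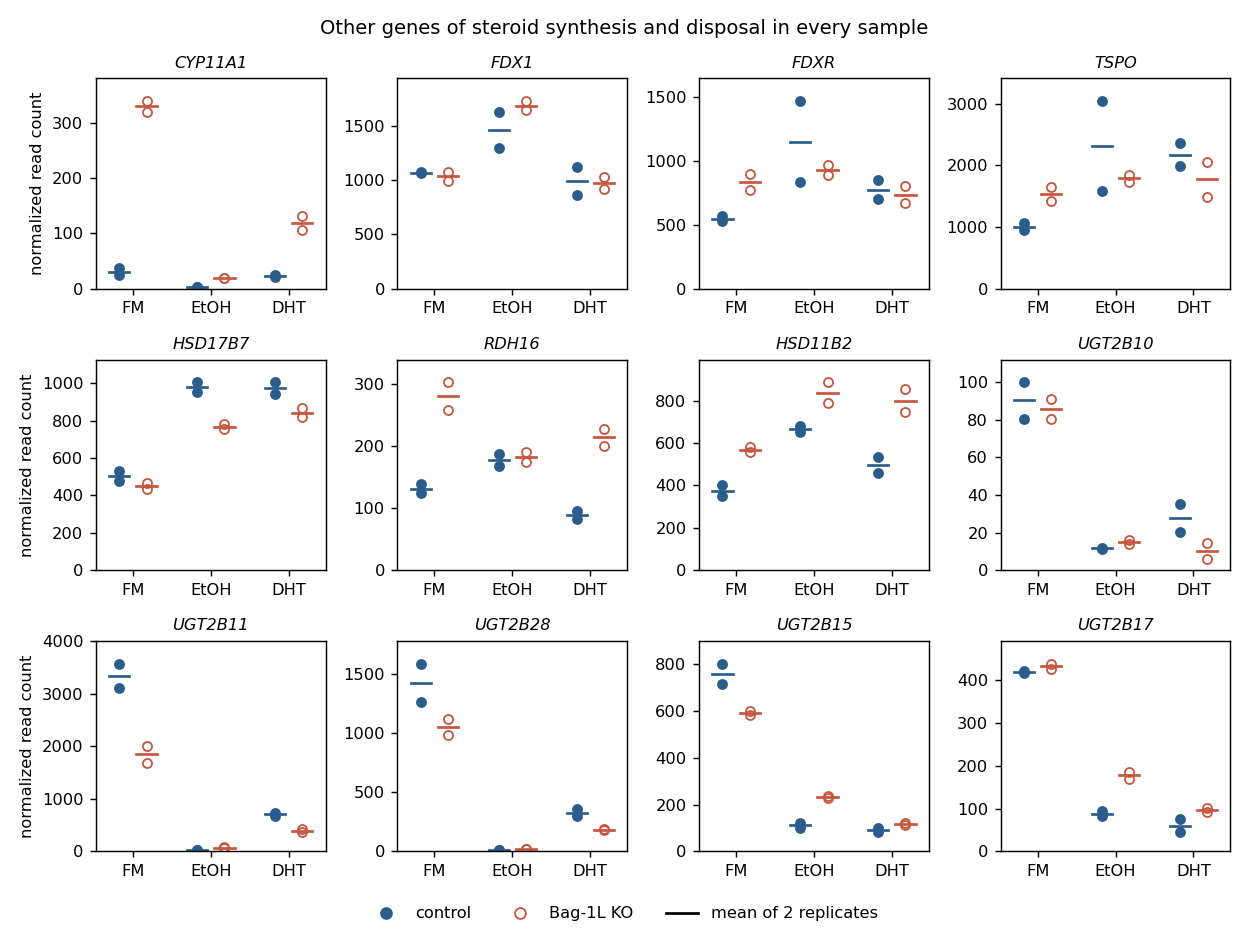
Normalized read counts (vertical axis, linear, starting at 0) of the 12 named genes of the surrounding steroid pathway list in FM, EtOH and DHT, with filled points for control, open points for Bag-1L KO and a bar for the mean of 2 replicates. CYP11A1 lies higher in KO in every condition, and UGT2B11 is high in FM, low in EtOH and intermediate in DHT.

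CYP11A1, which cuts the side chain of cholesterol in the first step of steroid synthesis, was higher in KO in all 3 conditions. The control counts were 24.3 and 37.9 with FM, 2.85 and 3.98 with EtOH, and 24.2 and 22.2 with DHT. The KO counts were 339 and 320 with FM, 20.3 and 18.8 with EtOH, and 106 and 131 with DHT. The KO samples lay above control in each condition, and the control EtOH values rest on few reads. The difference was 10.5-fold in FM (adjusted p = 5.93e-27), 5.1-fold in DHT (adjusted p = 4.47e-11) and 5.74-fold in EtOH (adjusted p = 0.00175), and the EtOH call was lost when only the compared samples were fitted. Other markers of steroidogenic cells stayed low, with STAR at no more than 5.52 and CYP17A1 at no more than 12.4 in any sample. FDX1 and FDXR, which pass electrons to CYP11A1, were at 859 to 1727 and 533 to 1472. FDX1 fell 1.73-fold with DHT in KO (adjusted p = 4.04e-06), where the control value was 1.47-fold lower (adjusted p = 0.00194) and under the fold minimum.

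RDH16, which can oxidise 3alpha-androstanediol back to DHT, fell 2.01-fold with DHT in control (187 and 168 to 94.9 and 81.7, adjusted p = 2.82e-05), and its KO counts were 175 and 190 in EtOH and 201 and 227 in DHT. The difference between the lines was 1.23 on the log2 scale (SE 0.29, adjusted p = 0.00728), and this call was lost with only the samples compared (adjusted p = 0.144) and in 5 of 8 fits that left out 1 library. HSD11B2, which inactivates cortisol, was higher in KO in DHT (1.62-fold, adjusted p = 3.42e-05) and in FM (1.52-fold, adjusted p = 0.000987). HSD17B7, which also acts in cholesterol synthesis, was lower in FM than in EtOH in both lines, 1.94-fold in control and 1.7-fold in KO. TSPO, a mitochondrial cholesterol-binding protein, was 2.29-fold lower in control FM than control EtOH (log2 −1.20, adjusted p = 1.66e-06), and −0.65 without control EtOH replicate 2. The KO value was −0.22 (adjusted p = 0.526).

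The genes whose 6 group means followed a member most closely were looked for among 11374 genes (mean normalized count at least 100) and are given as a description of that search. For HSD17B4 they were PPFIA3, GSK3A and PRMT1, with Pearson's r of 0.9969, 0.9918 and 0.99 over 6 group means. For HSD17B11 they were GLUL, LPIN1 and FOXP1, with r from 0.9818 to 0.9868, and for STS ELOVL4, EXT2 and ZNF620, with r from 0.9935 to 0.9968. All points share the same 12 libraries.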

How the data were processed

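RNA-seq libraries from 12 LNCaP samples in 6 groups of 2 replicates were analysed. The authors deposited raw read counts for each gene and sample, not pooled: TruSeq stranded poly(A) libraries were sequenced on a HiSeq instrument, and per the study's methods and processing notes (CASAVA 1.7, TopHat2 2.0.11, HTSeq 0.5.3p3) were mapped to GRCh37 and counted per Ensembl gene. The Ensembl release and strand setting are not given in the sources used here. HTSeq omits multi-mapped and ambiguous reads, and its 5 tallies, between 26.86% and 31.49% of a sample's reads, were left out.

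Genes with at least 10 counts in sum were kept (26156 of 63677). All 12 samples were fitted in DESeq2 1.42.0 (R 4.3.3) the study's tool, with a coefficient per group, unshrunken fold changes and Wald tests. A gene was called at a Benjamini-Hochberg adjusted p of at most 0.05, over all genes tested, and at least 1.5-fold. The fit was tested on simulated data. Gene totals of 20826843 to 30354666 put 3 counts, the floor, at 0.0988 to 0.144 CPM. Replicate pairs differed beyond sampling noise (chi-square per degree of freedom 3.19 to 36.46), so each sample counted once. p-values measure the spread between these replicates.

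Gene symbols and lengths came from GENCODE on GRCh37, holding 55665 of the identifiers, and promoters from RefSeq. The members and gene lists were chosen with earlier results of these data known. Named are the members, BAG1, the 12 genes of the pathway list with the lowest adjusted p among those called, and for up to 4 called members of mean count at least 100 with the widest range of group means, the 3 genes closest in pattern. Markers and FKBP5 serve as checks. Alternatives were edgeR 4.0.16, TMM size factors, no or a stricter count filter, a prior on fold changes, only the samples compared, a replicate block, no fold minimum and leaving out each sample. Counts over all genes and values for the pathway list under these alternatives, and canonical lengths, were added after the data were seen.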

Additional observations from a re-analysis of the deposited data

Results flagged for a closer look

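Among the pathway genes, 8 responses were called different between control and KO in DESeq2's interaction contrast, given as the KO response minus the control response on the log2 scale. For DHT against EtOH the differences were −2.52 for UGT2B11, −1.98 for UGT2B28 and 1.23 for RDH16. For FM against EtOH they were −2.54 for UGT2B11, −1.59 for UGT2B28, −1.41 for UGT2B15, −0.98 for UGT2B17 and 1.05 for RDH16. Of the 8 fits that left out 1 library, RDH16 lost its call in 5 for DHT and 6 for FM, UGT2B28 in 2 and 6, and UGT2B17 in 7 for FM, while UGT2B11 and UGT2B15 lost none. In FM, UGT2B11 rose 146-fold in control and 25.1-fold in KO, and UGT2B15 rose 6.83-fold in control and 2.57-fold in KO. No member's response differed between the lines by this test. With 2 samples a group, samples standing apart within a group were not tested.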

How the results depend on the processing

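Of 279 values of members recomputed under the alternatives, over 23 results, 249 kept their direction and their side of the threshold, 10 lost the call, 4 (AKR1C3) received no adjusted p, 15 gained it and 1 reversed. The reversal was HSD17B10 in KO against control in EtOH, −0.38 in all samples, −0.71 without control EtOH replicate 1 and 0.05 without control EtOH replicate 2. Member results entered this tally only where the main fit or an alternative made a call. For the 12 pathway genes only results called in the main fit were counted, so none could gain a call. Of their values, 611 of 674 kept the call and 63 lost it, and none reversed. The cause was not tested for any of these.

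The number of members called moved as follows. For KO against control in EtOH it was 0, and 1 with edgeR, with 10 counts in every sample and with the replicate block (HSD17B14, log2 0.93, adjusted p = 0.048), and 0 to 1 when 1 replicate was left out. For KO against control in DHT it was 0, and 1 with no fold change minimum, with 0 to 1 leaving out 1 replicate. For KO against control in FM it was 0, and 1 with no fold change minimum. For FM against EtOH in control it was 3, and 5 with no fold change minimum. For FM against EtOH in KO it was 4, and 2 with 10 counts in every sample and 6 with no fold change minimum. It was lower when 1 replicate was left out, where AKR1C3 received no adjusted p. For DHT against EtOH in KO it was 2, and 3 with no fold change minimum. Leaving out 1 replicate gave 1 to 2 for DHT in KO, 2 to 3 for DHT in control and for FM in control, and 0 to 1 for the difference of the FM response.

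The replicate block changed the number of members called in no other comparison. The replicate numbers share no stated batch. The replicate differences of the groups correlated from −0.415 to 0.692 (mean 0.033, 6 of 15 pairs over 0.1). The highest value was that of control EtOH with control DHT, and the lowest that of control DHT with KO EtOH. With values of both signs, a batch shared by some groups cannot be told from these, and the main fit did not pair the samples.

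Counts over all genes were steadier for single comparisons than for differences of responses. The difference of the DHT response was called for 55 genes, 24 with edgeR, 19 with only the samples compared and 16 to 155 leaving out 1 replicate. That of the FM response was called for 180, 65 with edgeR, 281 with the replicate block and 49 to 2124 leaving out 1 replicate, the highest without control EtOH replicate 1. KO against control in EtOH was called for 844, 531 with only the samples compared and 480 to 1439 leaving out 1 replicate, in DHT for 1278 (720 to 1556), and in FM for 1202 (520 to 901). With no fold change minimum the counts were 3491 and 2384 for DHT in control and KO in place of 2001 and 1346, 1620, 2620 and 2776 for KO against control in EtOH, DHT and FM, and 6478 and 5887 for FM in control and KO in place of 3956 and 3578.

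Of the pathway differences, UGT2B17 and UGT2B28 for FM and UGT2B28 for DHT were not called by edgeR, RDH16 and UGT2B28 for DHT were not called with only the samples compared, and the differences of UGT2B11 for both and of UGT2B15 for FM were called under every alternative run. Losses on leaving out 1 library are given above. Among other pathway calls, 3 or more alternatives lost those of UGT2B10 for DHT in control, RDH16 for FM in KO, UGT2B10 and UGT2B17 for KO in DHT (UGT2B17 at 0.36 without control DHT replicate 1), and TSPO, FDXR and HSD11B2 for KO in FM. Leaving out a replicate leaves 1 sample in its group, which is then assumed to vary like the others. Low counts limit AKR1C3, HSD17B14 and HSD3B1.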
